A study of Homo sapiens with 62 samples.

Results

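The genes described here are 10 long noncoding RNAs that act as hosts of small nucleolar RNAs (snoRNAs): GAS5, SNHG1, SNHG5, SNHG6, SNHG8, SNHG12, SNHG15, SNHG16, ZFAS1 and DANCR. They were taken by gene name from every count table, and all 10 were found among the 58735 genes of the GRCh38 tables and among the 48162 genes of the A2780 tables, which carry GRCh37 coordinates. All 10 passed the filter on low counts in each of the 12 comparisons. GAS5 lies on 1q (GRCh38 chr1:173863900-173868882), SNHG6 on 8q (chr8:66921684-66926398) and SNHG15 on 7p (chr7:44983023-44986961), the arms that were removed in this study. The other members lie elsewhere: SNHG12 on 1p, SNHG1 on 11q, SNHG5 on 6q, SNHG8 and DANCR on 4q, SNHG16 on 17q and ZFAS1 on 20q.

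A snoRNA host gene is transcribed and spliced like a messenger RNA, and its snoRNAs are cut out of the introns to guide chemical modification of ribosomal RNA. The spliced exons are largely noncoding, and many of these transcripts begin with a run of pyrimidines, as the messenger RNAs of ribosomal proteins do, and are removed by nonsense-mediated decay (NMD) when ribosomes engage them. Their level therefore reflects gene dosage, transcription and translation-coupled decay together, and GAS5 is best known for accumulating in growth-arrested cells.

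Polyadenylated RNA was sequenced in 62 libraries of 5 human cell lines: A2058 (melanoma), HCT116 (colorectal cancer), AGS (gastric cancer), A2780 (ovarian cancer) and MCF10A (non-tumorigenic breast epithelium). Parental cells (WT) and cells with an integrated TK cassette (TK+) kept the gained arm, and clones grown from single cells had lost it through ReDACT, a collection of chromosome-engineering methods whose versions the labels name NS, TR and CO. In A2058 there were 4 WT, 4 1q-loss (2 clones), 4 8q-loss (2 clones) and 6 7p-loss (3 clones) libraries, all losses made by CO. HCT116 had 2 WT and 4 8q-loss libraries (2 clones, CO). In AGS, 5 1q-loss clones gave 1 library each (clone 11 made by CO, the other 4 by NS), beside 2 TK+ clones and a single WT library. A2780 had 2 WT, 2 TK+ and 6 1q-loss libraries (3 clones, NS). MCF10A had 2 WT and 8 1q-loss libraries (4 clones, of which clone 4 was made by CO and the others by TR). Matching WT and 1q-loss groups of the same sizes expressed hRASV12, an activated form of HRAS that is called hRas here. Libraries of 1 clone are not independent, and nothing in the labels says that repeat libraries came from separate cultures, so p-values measure the spread between these libraries. By the chi-square per degree of freedom between their counts, AGS clones 6 and 7 differed by 7.06 and clones 1 and 4 by 19.4. Across these pairs the values were 76.6 to 86.0, and clone 11 differed from the others by 37.6 to 68.5. Repeat libraries of A2780 clone 6 differed by 8.46. Whether the AGS clones arose independently was not tested.

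Libraries held 15042068 to 30984036 counts in genes. Melanocyte markers (SOX10, MITF, PMEL, MLANA and TYR) summed to 42.9 to 2809 CPM, the count of a gene scaled to a fixed library total, over A2058 libraries, the lowest values being in the 1q-loss clones, and ovarian carcinoma markers (PAX8, WT1 and MUC16) were at 0 to 1.31 CPM in A2780. In MCF10A with hRas, 1q-loss clone 2 stood apart: CDH1, an epithelial adhesion gene, was at 2.62 and 3.27 CPM there, against 146 to 328 CPM in the other 3 clones and 217 and 219.9 CPM in hRas WT. Levels below are CPM scaled by the trimmed mean of M-values (TMM) within a line, and changes are log2 fold changes ± standard error (SE). Whether a lower level reflects less RNA per cell or fewer expressing cells cannot be told apart in bulk RNA.

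Start regions are shown for GAS5, the member on 1q, and for the 4 members with a TATAA box near the start. Pearson's r with GAS5 over the 62 libraries was 0.67 for SNHG5, 0.57 for SNHG8, 0.55 for ZFAS1 and 0.35 for SNHG12, and without the AGS libraries 0.50, 0.46, 0.27 and 0.50, where SNHG1 (0.40) and DANCR (0.31) stood above ZFAS1. Each window runs from 40 bases before to 30 bases from the start annotated by RefSeq (GRCh38.p14), 5′ to 3′ on the gene's strand. Capitals mark TATAA lying 40 to 15 bases before the start, and a C followed by at least 4 C or T whose first base lies within 5 bases of the start.
GAS5, chr1:173869016-173869085, minus strand: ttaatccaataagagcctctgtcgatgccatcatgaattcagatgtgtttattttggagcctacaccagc
SNHG5, chr6:85678704-85678773, minus strand: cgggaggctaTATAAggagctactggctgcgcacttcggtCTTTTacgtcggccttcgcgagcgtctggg
SNHG8, chr4:118278722-118278791, plus strand: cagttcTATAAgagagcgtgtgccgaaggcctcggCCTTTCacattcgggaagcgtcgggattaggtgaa
SNHG12, chr1:28581844-28581913, minus strand: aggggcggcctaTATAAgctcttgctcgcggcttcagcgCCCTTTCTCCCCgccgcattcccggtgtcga
ZFAS1, chr20:49278602-49278671, plus strand: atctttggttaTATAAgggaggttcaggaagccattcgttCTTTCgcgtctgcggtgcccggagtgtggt

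RefSeq promoters were matched for 8 of the 10 members, and those of SNHG6 and SNHG15 were not used here. The pyrimidine run stood at the start of 6 of the 8 (SNHG5, SNHG8, SNHG12, SNHG16, ZFAS1 and DANCR), against 21.1% of all 35116 promoters in the table. TATAA in the stated place stood in 4 of the 8 (SNHG5, SNHG8, SNHG12 and ZFAS1), against 3.91% of promoters, and TATAA anywhere in the 300 bases on either strand in 5 of the 8, against 20.4%. The E-box CACGTG, the same on both strands and overlapping neither motif, was in 0 of the 8 windows of 300 bases and in 7.26% of promoters. These are matches of letters, not mapped sites. The RefSeq start of GAS5 lies outside the gene span of the count tables, so the window shown may not hold the start used in these cells.

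GAS5 was the member on the arm removed most often, and its level was lower in every 1q-loss clone of all 5 comparisons, passing the test in 4 of them. A member called here had an adjusted p under 0.05 by edgeR's quasi-likelihood test with Benjamini-Hochberg adjustment over all genes tested. In A2058 the 4 1q-loss libraries stood at 111, 114, 134 and 128 CPM and the WT libraries at 154, 171, 184 and 178 CPM. Every loss library lay below every WT library, and GAS5 fell by 0.50 ± 0.08 (adjusted p = 0.000446). In A2780 the loss libraries stood at 39.1 to 60.3 CPM with a median of 49.95, the WT libraries at 59.2 and 69.3 CPM and the TK+ libraries at 71.6 and 65.9 CPM. The groups overlapped in 1 loss library, of clone 6, and GAS5 fell by 0.41 ± 0.11 (adjusted p = 0.0308), a call that was lost when the TK+ libraries or the WT libraries alone served as controls (adjusted p = 0.113 and 0.176). It was also lost without clone 2 or clone 5 (adjusted p = 0.0536 and 0.07), and without any 1 of WT replicate 2, TK+ replicates 1 and 2, clone 2 replicate 1 and clone 5 replicate 2 (change -0.41 to -0.37, adjusted p 0.0509 to 0.0934).

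The change in AGS was the largest of the 5. GAS5 stood at 570 CPM in WT and at 495 and 527 CPM in TK+ cells, and at 181, 217, 239, 229 and 339 CPM in clones 1, 4, 6, 7 and 11. All 5 clones lay below the 3 controls, clone 11 being nearest to them. GAS5 fell by 1.13 ± 0.18, to 45.6% of control (adjusted p = 0.0126), and without the WT library, which leaves the TK+ clones as controls, the change was -1.06 (adjusted p = 0.0632). Without TK+ clone 2 it was -1.14 (adjusted p = 0.0597).

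In MCF10A the 8 1q-loss libraries stood at 80.5 to 99.8 CPM with a median of 85.5, and the WT libraries at 144 and 156 CPM. The groups did not overlap, the 4 clones were alike at -0.75 to -0.81 from the WT mean, and GAS5 fell by 0.77 ± 0.08 (adjusted p = 0.000567). With hRas, the 1q-loss libraries stood at 83.4 to 106 CPM with a median of 96.2, and the hRas WT libraries at 122 and 102 CPM. These groups overlapped, and the change of -0.22 ± 0.11 did not pass the test (adjusted p = 0.364). Clone 2 of these cells, which stood apart in CDH1, also had EPCAM, an epithelial surface gene, at 3.7 and 5.08 CPM (94.1 and 97.6 in hRas WT), TP63, a basal cell regulator, at 0.511 and 0.636 CPM (57.7 and 60.5) and the basal keratin KRT5 at 566 and 547 CPM (3549 and 3582). CDH1, EPCAM and KRT18 of the 4 epithelial markers and KRT5 and TP63 of the 3 basal ones were below hRas WT in clone 2, and KRT8 and KRT14 were above it. Of the 3 fibroblast markers DCN was above hRas WT (260 and 280 against 18.5 and 18.9 CPM), COL1A1 below it (6.17 and 6.16 against 7.5 and 7.75 CPM) and LUM at 0 in both. Clone 4, the 1 made by CO, was shifted less far in several of the same genes, with CDH1 at 146 and 147 CPM, EPCAM at 30.6 and 30 CPM, TP63 at 36.4 and 40.1 CPM, KRT5 at 2224 and 2365 CPM and DCN at 85.7 and 77.2 CPM, and it was lowest in KRT14 (5.7 and 4.92 against 53.03 and 55.5 CPM in hRas WT). KRT18 was below hRas WT in clone 4 (200.7 and 212.6 against 336 and 330.6 CPM). KRT8 was above it there (232.4 and 243.5 against 182.9 and 192.9 CPM), as was COL1A1, unlike in clone 2 (10.56 and 10.51 against 7.5 and 7.75 CPM). GAS5 changed by -0.27 without clone 2 (adjusted p = 0.36), -0.20 without clone 4 (adjusted p = 0.505) and -0.25 without both (adjusted p = 0.243).

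**Figure D1:**
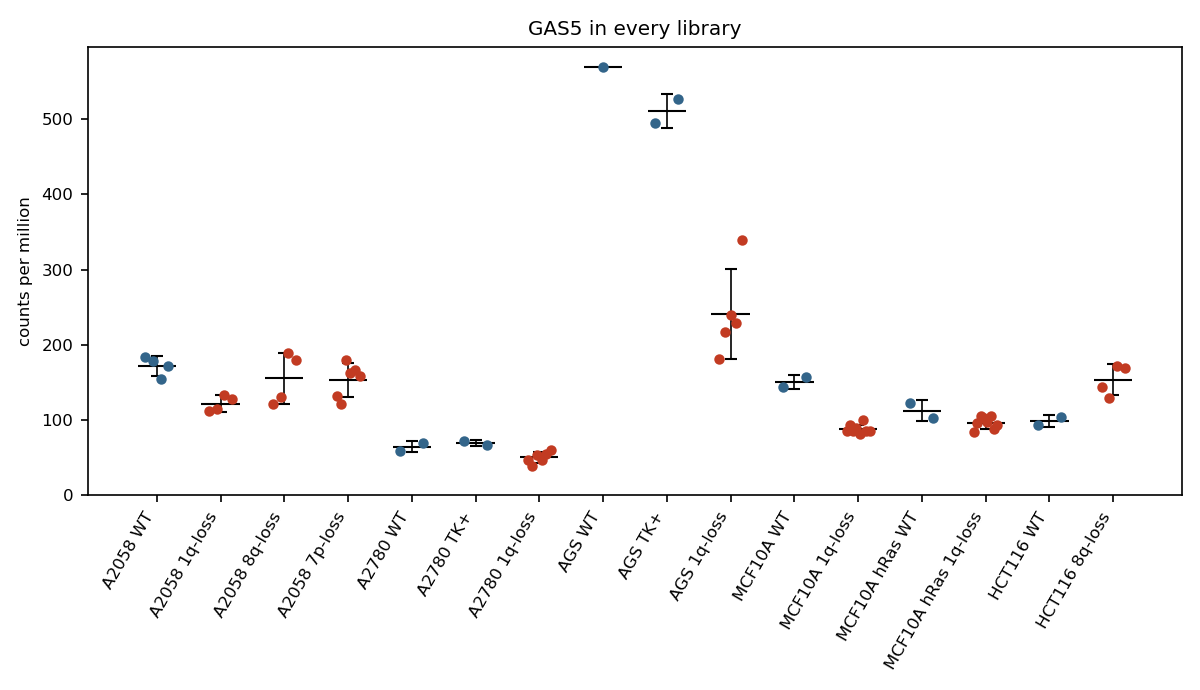
GAS5 in CPM (vertical axis) in every library of the 16 groups (horizontal axis), blue for groups that keep the gain and red for loss clones; bars are the mean and SD of each group. AGS controls, at 495 to 570, are the highest values shown, but CPM were scaled within each line and A2780 counts use other gene models. The 1q-loss groups of A2058, AGS and MCF10A do not overlap their controls, whereas those of A2780 and MCF10A with hRas do.

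The question of dosage was whether a member changed as the other genes of its arm did. The median change of the tested 1q genes was -0.46 in A2058, -0.45 in A2780, -0.54 in AGS, -0.49 in MCF10A and -0.37 in MCF10A with hRas. The last value covers unequal clones: per library the 1q median stood at -0.28 and -0.27 in hRas clone 3 and at -0.45 to -0.37 in the other 3 hRas clones, and clone 3 without hRas was at -0.48 in both libraries. Without hRas clone 3, GAS5 changed by -0.25 (adjusted p = 0.32). The share of 1q genes called lower was 59.7%, 48.7%, 32.2%, 34.6% and 3.47% in the same order. The difference of a member from its arm was taken in each library on log2 CPM and averaged, so it need not equal the gap between the fitted changes given here. For GAS5 it was -0.05 in A2058 (exact permutation p = 0.6, two-sided, over libraries) and 0.03 in A2780 (exact permutation p = 0.81). In these 2 lines GAS5 sat in the middle of its arm, with 45.9% and 56.2% of 1q genes changing further downward. In AGS the difference was -0.62 (exact permutation p = 0.0357, the smallest this design allows) and in MCF10A -0.27 (exact permutation p = 0.0444, also the smallest). There 8.51% and 12.1% of 1q genes had a lower change than GAS5. Neither difference passed after adjustment over the 8 loss comparisons (adjusted exact permutation p = 0.178 for both). The AGS value averages unequal clones. Clones 1, 4, 6 and 7 stood at -1.015, -0.75, -0.58 and -0.68 from their arm. Clone 11 stood at -0.11, next to the control TK+ clone 1 at -0.10. In MCF10A with hRas the difference was 0.17, in the other direction (exact permutation p = 0.222).

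ZBTB37, a zinc-finger gene that overlaps GAS5 on the opposite strand, changed by -0.72 ± 0.16 in A2058 (adjusted p = 0.00371) and -0.67 ± 0.13 in A2780 (adjusted p = 0.0082). ZBTB37 did not pass the test in AGS (-0.40 ± 0.16, adjusted p = 0.162), MCF10A (-0.61 ± 0.17, adjusted p = 0.116) or MCF10A with hRas (-0.70 ± 0.27, adjusted p = 0.307). Strand use in the counting is not given in the sources used here, so reads of the overlap cannot be told apart, but over the GRCh38 libraries ZBTB37 had a median of 242.5 counts and GAS5 one of 2954. RC3H1, a neighbour that encodes an RNA-binding ubiquitin ligase, changed by -0.14 to -0.32 in the 5 comparisons and passed the test in A2780 (-0.31, adjusted p = 0.0262).

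SNHG6, the host on 8q, was measured in clones of 2 lines. The A2058 8q-loss libraries stood at 66.8, 83.7, 76.9 and 96.5 CPM and the WT libraries at 111, 117, 120 and 137 CPM. The groups did not overlap, and SNHG6 fell by 0.58 ± 0.11 (adjusted p = 0.0309), against a median of -0.53 for the tested genes of 8q, of which 38.3% were called lower. The difference from the arm was -0.06 (exact permutation p = 0.743). In HCT116 the loss libraries stood at 69.9, 58.8, 77.3 and 67.9 CPM and the WT libraries at 79.1 and 108 CPM. They did not overlap there either, but the change of -0.45 ± 0.26 did not pass the test (adjusted p = 0.9997), beside an arm median of -0.58. No gene of 8q was called lower in HCT116 (0%), and the exact permutation test against the arm (difference 0.15, p = 0.4) cannot go below 0.133 in that design.

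The neighbours of SNHG6 on 8q in A2058 fell too: COPS5, a subunit gene of the COP9 signalosome, by 0.61 ± 0.08 (adjusted p = 0.00473) and the kinase gene SGK3 by 0.65 ± 0.12 (adjusted p = 0.0239). The call of SNHG6 rested on few libraries, being lost in each of the 4 fits that left out 1 WT library, without clone 1 replicate 2 and without clone 2 replicate 1 (adjusted p 0.0671 to 0.0957), and without clone 1 altogether (adjusted p = 0.0622). The change stayed between -0.70 and -0.49 over 20 alternatives.

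SNHG15, the host on 7p, stood at 26.2, 26.6, 40.4, 37.3, 33.3 and 34.2 CPM in the 7p-loss libraries of A2058 (clones 1, 2 and 3 in order) and at 49.0 to 61.5 CPM in WT. The groups did not overlap, and clone 1 was lowest. SNHG15 fell by 0.69 ± 0.13 (adjusted p = 0.0375), against an arm median of -0.51, with 27.8% of 7p genes called lower, and its difference from the arm was -0.20 (exact permutation p = 0.276). That difference was -0.57 and -0.575 in the libraries of clone 1, and -0.17 to 0.11 in those of clones 2 and 3. The neighbours PURB and CCM2, which encode a nucleic-acid-binding protein and a vascular scaffold protein, fell by 0.53 ± 0.10 (adjusted p = 0.0377) and 0.77 ± 0.10 (adjusted p = 0.00309). The SNHG15 call was lost without any 1 of the 4 WT libraries (adjusted p 0.0843 to 0.147), clone 2 replicate 2 (adjusted p = 0.0525) or either library of clone 3 (adjusted p = 0.0872 and 0.0625), and without clone 3 altogether (adjusted p = 0.114).

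**Figure D2:**
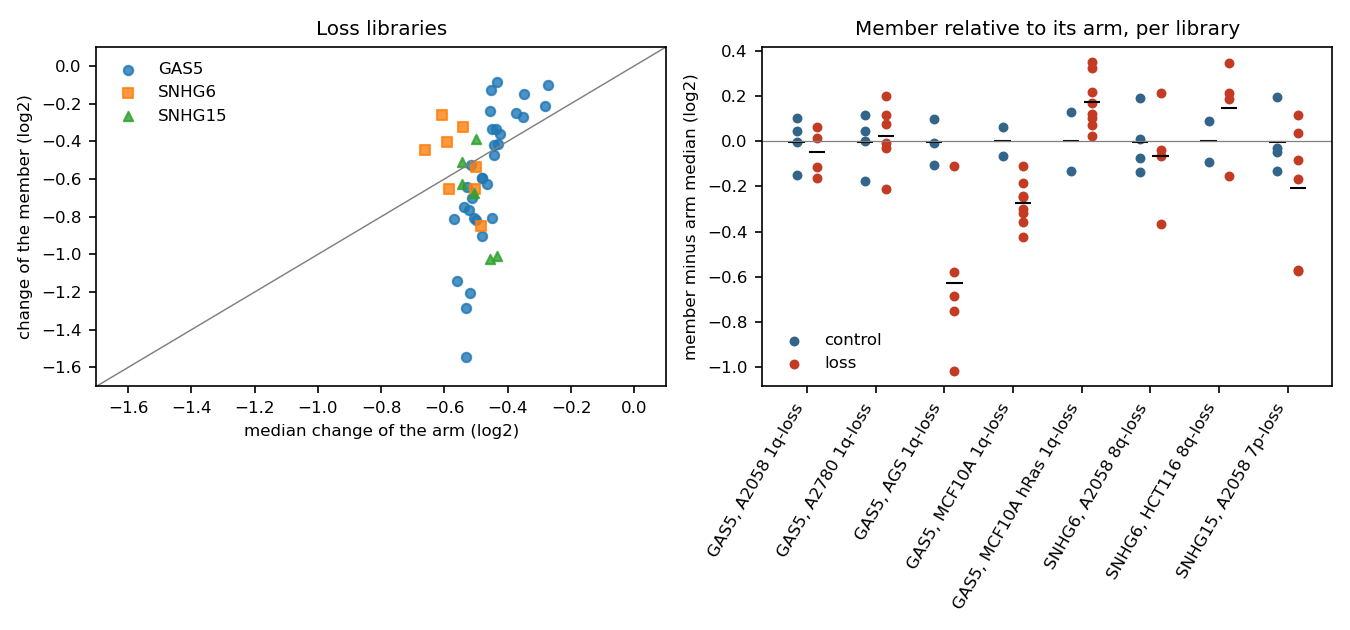
Left, the change of the member on the removed arm (vertical axis, log2 against the control mean) in each loss library against the median change of the tested genes of that arm (horizontal axis, log2), with the line of equality; right, the difference of member and arm in control (blue) and loss (red) libraries, with group means. Arm medians span a narrow band while GAS5 reaches -1.55, and the AGS and MCF10A 1q-loss libraries lie below all their controls.

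Away from the removed arms the members did not all share 1 direction, but most signs were negative in most comparisons. Of the 9 members off the arm, 8 had negative signs in MCF10A 1q-loss, A2058 8q-loss and A2058 7p-loss. In A2058 and A2780 1q-loss 7 did, in MCF10A hRas 1q-loss 6, in AGS 1q-loss 4 and in HCT116 8q-loss 3. In A2058 without 1q, 5 of the 10 members were called, GAS5 on 1q among them, where 49.6% of all 15387 genes tested were called, 25.3% higher and 24.3% lower. Of the 9 members off 1q, 1 was called higher and 3 lower, so their share was near the background. DANCR, a noncoding RNA known for holding progenitor cells undifferentiated, stood at 44.8, 40.1, 39.8 and 37.1 CPM in the loss libraries and at 96.0, 78.8, 98.0 and 61.0 CPM in WT. The groups did not overlap, and DANCR fell by 1.05 ± 0.14 (adjusted p = 0.000124), the largest change of a member in that line. SNHG8 fell by 0.42 ± 0.09 (adjusted p = 0.00215) and SNHG6 by 0.30 ± 0.08 (adjusted p = 0.00732). ZFAS1, which lies antisense to the promoter of ZNFX1, rose by 0.35 ± 0.09 (adjusted p = 0.00614), from 29.6 to 37.9 CPM in WT to 40.4 to 45.3 CPM. ZNFX1 rose by 0.67 ± 0.09 in the same comparison (adjusted p = 9.8e-05), and its reads cannot be told apart from those of ZFAS1 where the 2 overlap. The call of ZFAS1 was lost against WT replicates 1 and 2 alone (0.25, adjusted p = 0.0526) and in the fit over all A2058 groups (0.36, adjusted p = 0.147). That of SNHG6 was lost against the same WT replicates (-0.22, adjusted p = 0.0512) and without clone 1 (-0.24, adjusted p = 0.0589). SOX10, a melanocyte marker, stood at 24.4 to 80.6 CPM in these clones and at 473 to 660 CPM in WT; its part in the members' changes was not tested.

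In A2780 without 1q, GAS5 was the 1 member called, against 11.8% of all genes. SNHG15 stood at 16.8 to 20.7 CPM in the clones with a median of 18.1, against 13.02 and 13.8 CPM in WT and 17.1 and 14.1 CPM in TK+ cells (0.34 ± 0.10, adjusted p = 0.0555). SNHG12 stood at 5.92 to 8.75 CPM against 7.98 to 10.7 CPM (-0.41 ± 0.13, adjusted p = 0.07). Both passed the test by DESeq2 (adjusted p = 0.0199 and 0.037). The TK cassette itself left no member called in A2780 (0 by edgeR, 0 at an unadjusted p under 0.05 and 0 by DESeq2), where 11.2% of genes were called. Without TK+ replicate 2, which leaves 1 TK+ library whose spread is assumed to be that of WT, SNHG5 (0.51, adjusted p = 2.14e-05) and SNHG8 (0.41, adjusted p = 0.0483) were called higher, where 19% of genes were called.

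In AGS without 1q, 2 of the 10 members were called, GAS5 lower and SNHG15 higher, against 7.55% of genes (4.17% lower and 3.38% higher). SNHG15 stood at 38.8, 40.1, 55.3, 52.9 and 42.7 CPM in clones 1, 4, 6, 7 and 11 and at 25.8 to 32.8 CPM in the controls. It rose by 0.70 ± 0.16 (adjusted p = 0.0335) in all 5 clones, on an arm that was not targeted and whose own median stayed within 0.07 of control in each clone. Without the WT library the change was 0.68 (adjusted p = 0.122), and the call was also lost without either TK+ clone (adjusted p = 0.118 and 0.085), clone 6 (adjusted p = 0.0588) or clone 7 (adjusted p = 0.0667).

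Most AGS clones also had low SNHG5 and ZFAS1, and clone 11 did not. SNHG5 stood at 33.5, 29.9, 34.1 and 30 CPM in clones 1, 4, 6 and 7, at 70.6 CPM in clone 11 and at 57.9 to 77.8 CPM in the controls. ZFAS1 stood at 65.4, 76.5, 66.5 and 55.7 CPM in the same 4 clones, at 140 CPM in clone 11 and at 119.9 to 183 CPM in the controls. Clone 11 thus lay within the controls for both genes, and for SNHG8 as well, at 85.6 CPM against 54.65 to 87.3 CPM. Over all 5 clones neither SNHG5 (-0.73 ± 0.28, adjusted p = 0.141) nor ZFAS1 (-1.0 ± 0.28, adjusted p = 0.0637) passed the test. Without clone 11 both did, at -1.04 (adjusted p = 0.00403) and -1.29 (adjusted p = 0.00521), and 5 members were called, where 11.9% of genes were (1773, against 1131 with all clones). Clone 11 is the 1 AGS clone made by CO, so its method and the clone itself cannot be told apart, and it had 7.14% mitochondrial counts, within the 5.31% to 9.15% of the other clones.

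SNHG1 and DANCR were higher in every AGS clone but did not pass the test. SNHG1, which hosts several snoRNAs on 11q, stood at 168, 186, 132, 137 and 126 CPM against 84.1 to 124 CPM (0.59 ± 0.18, adjusted p = 0.0721). The whole of 11q stood 0.405 and 0.55 above control in clones 1 and 4 and 0.03 to 0.04 above it in the other 3, which have the lower SNHG1 values. DANCR stood at 19.4 to 24.9 CPM against 15.3 to 16.97 CPM (0.48 ± 0.13, adjusted p = 0.0586).

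In MCF10A without 1q, GAS5 was the 1 member called, against 2.04% of genes. The other 9 members changed by -0.35 to 0.03, and 8 of those 9 had negative signs, with a median of -0.28 against 0.01 over all genes tested. SNHG8 was lower than both WT libraries in all 8 loss libraries, at 26.4 to 36.0 CPM against 41.0 and 36.4 CPM (-0.33 ± 0.11, adjusted p = 0.202). DANCR stood at 62.5 to 95.2 CPM against 106 and 96.8 CPM (-0.35 ± 0.12, adjusted p = 0.241). In A2058 without 8q the 1 member called was SNHG6, against 2.03% of genes, and in A2058 without 7p it was SNHG15, against 0.908%. These 2 comparisons and that of 1q loss share the 4 WT libraries of A2058.

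In HCT116 without 8q no member was called (0 by edgeR, 1 at an unadjusted p under 0.05 and 0 by DESeq2), and 0.14% of genes were. GAS5 stood at 144, 129, 172 and 170 CPM in the clones and at 92.5 and 104 CPM in WT, all loss libraries above both WT libraries (0.65 ± 0.26, adjusted p = 0.808). SNHG15 split by clone, at 151 and 190 CPM in clone 1 and 76.1 and 72.3 CPM in clone 2, around WT values of 101 and 85.7 CPM. The genes of 7p together stood 0.38 above control in clone 1 and at -0.01 in clone 2.

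SNHG1, SNHG5, SNHG12 and SNHG16 passed the test in none of the 12 comparisons, as fitted with edgeR over all libraries of each. SNHG16 was the steadiest, with changes of -0.16 to 0.24. SNHG12 stood at 12.9 to 30.6 CPM in the 7p-loss libraries of A2058 against 24.9 to 31.4 CPM in WT (-0.37 ± 0.20, adjusted p = 0.461), the spread lying between clones. In MCF10A without 1q it stood at 21.5 to 30.4 CPM against 30.3 and 33.4 CPM (-0.25 ± 0.12, adjusted p = 0.446), with all 4 clones lower. Apart from AGS, SNHG1 changed by -0.24 to 0.17 and SNHG5 by -0.31 to 0.36.

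**Figure D3:**
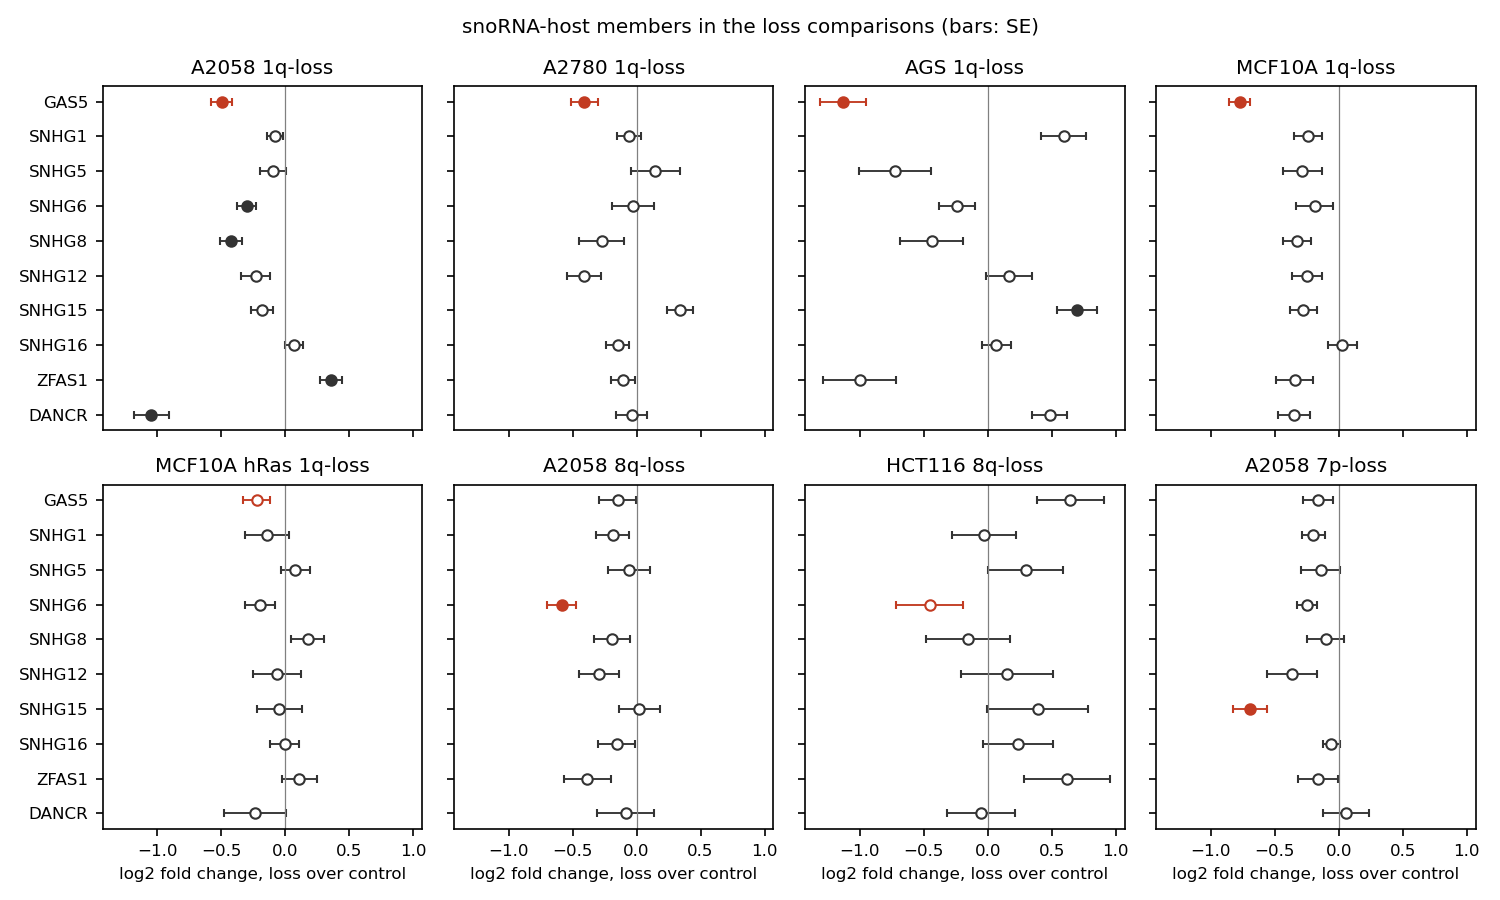
log2 fold change (horizontal axis, loss over control; bars are SE) of each of the 10 members in the 8 loss comparisons; filled symbols passed the test and red marks the member on the removed arm. The member on the removed arm lies left of 0 in all 8 panels and passed in 6, and the remaining members scatter to both sides, most widely in AGS.

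The hRas cells asked how the members respond to an active oncogene with and without the 1q gain. HRAS rose by 1.01 ± 0.07 in WT cells (adjusted p = 1.63e-05) and by 1.44 ± 0.20 in 1q-loss clones (adjusted p = 0.00231), which checks the labels. In WT cells hRas went with lower GAS5, at 122 and 102 CPM against 144 and 156 CPM. The libraries did not overlap, and GAS5 fell by 0.42 ± 0.09 (adjusted p = 0.0401), the 1 member called, against 1.62% of genes. This call was lost without either WT library or without hRas WT replicate 2 (change -0.48 to -0.29, adjusted p 0.341 to 0.4656), and in the fit over all MCF10A groups (-0.42, adjusted p = 1). All 10 members had a negative sign, with a median of -0.29 against -0.01 over all genes. DANCR stood at 84.2 and 73.8 CPM against 106 and 96.8 CPM (-0.36 ± 0.09, adjusted p = 0.0713). SNHG5 stood at 83.5 and 73.8 CPM against 103 and 92.4 CPM (-0.31 ± 0.09, adjusted p = 0.12).

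In 1q-loss clones hRas left no member called (0 by edgeR, 1 at an unadjusted p under 0.05 and 0 by DESeq2), where 1.2% of genes were. Clone numbers are shared by the clones with and without hRas, and same-numbered clones deviated together. With the clone number as a block, 1 member was called, DANCR, which fell by 0.28 (adjusted p = 0.0239), where 15.1% of genes were called (2160, against 172 without the block). DANCR stood at 70.4 and 72.2 CPM in hRas clone 1, 57.2 and 53.2 in clone 2, 91.1 and 93.1 in clone 3 and 52.7 and 45.8 in clone 4. The same clones without hRas stood at 86.7 and 82.7, 76.5 and 68.9, 95.2 and 84.3, and 78.4 and 62.5 CPM. Clones 1, 2 and 4 were lower with hRas in both libraries, and the libraries of clone 3 overlapped. GAS5 changed by 0.13 ± 0.06 (adjusted p = 0.247, and 0.108 with the block), and 5 members had negative signs, with a median of -0.02. Clones 2 and 4 were the hRas clones lowest in CDH1, EPCAM, KRT18 and KRT5, while KRT8 was above hRas WT in both. They had the lowest DANCR and the highest HRAS, at 408 and 364 CPM in clone 2 and 218 and 215 CPM in clone 4, against 156 to 161 CPM in clones 1 and 3. The DANCR call with the block was lost without clone 2 (-0.24, adjusted p = 0.149), without clone 4 (-0.20, adjusted p = 0.0998) and without both (-0.10, adjusted p = 0.471), and was made without clone 1 (-0.29, adjusted p = 0.0452) and without clone 3 (-0.38, adjusted p = 0.0137). These fits, each leaving a clone out of both groups, were added after the values were seen. The part of the marker levels in the members' changes was not tested. Loss of 1q in hRas cells likewise left no member called (0 by edgeR, 0 at an unadjusted p under 0.05 and 0 by DESeq2), against 0.214% of genes. The test of the difference itself, the interaction of 1q loss and hRas over 20 libraries, called 0 members by edgeR (3 at an unadjusted p under 0.05, 0 by DESeq2) and 0% of genes. Its largest estimates among members were 0.55 ± 0.14 for GAS5 (unadjusted p = 0.000681, adjusted p = 0.999), 0.50 ± 0.17 for SNHG8 and 0.45 ± 0.21 for ZFAS1. With the clone number as a block, added after the values were seen, the interaction again called 0 members (GAS5 0.54, adjusted p = 0.405) and 0.00606% of genes, and with clone 2 left out 0 members (GAS5 0.50, adjusted p = 1). The comparisons of 1q loss and of hRas against WT share the 2 MCF10A WT libraries, which were the highest of the 4 groups for GAS5.

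**Figure D4:**
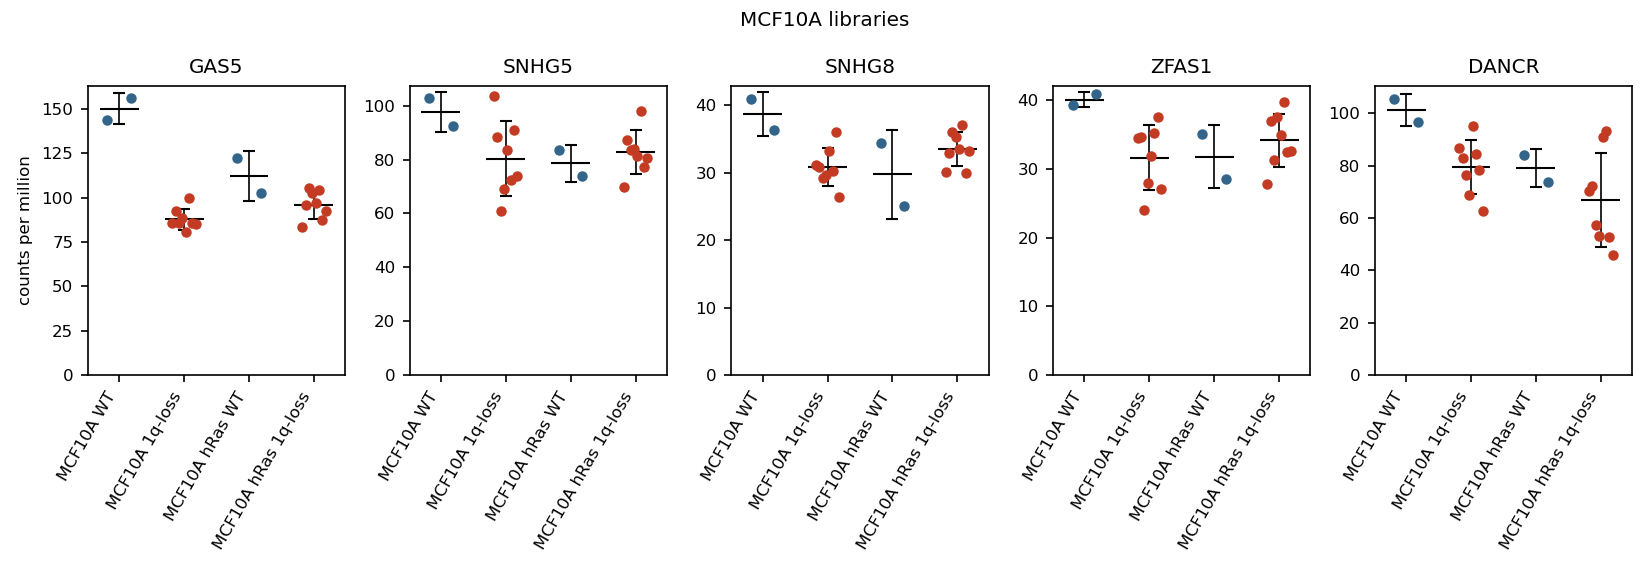
CPM (vertical axis, from 0) of GAS5, SNHG5, SNHG8, ZFAS1 and DANCR in the 4 MCF10A groups; points are libraries, bars the mean and SD. The WT libraries lie at the top of each panel or near it, and for GAS5 the 1q-loss libraries with and without hRas overlap at 80.5 to 106.

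Differences between lines were tested for 4 pairs of comparisons that share no controls, chosen after the values had been seen. The change with 1q loss differed between AGS and A2058 for 5 members, where 24.2% of genes differed. DANCR differed most, by 1.52 ± 0.19 (AGS minus A2058, adjusted p = 3.47e-05), being lower in both A2058 clones and higher in all 5 AGS clones. ZFAS1 differed by -1.36 ± 0.32 (adjusted p = 0.00489), in the opposite sense. Between MCF10A and A2058 ZFAS1 and DANCR differed, against 21.4% of genes, and between MCF10A and AGS SNHG1, SNHG15 and DANCR did, against 2.05%. GAS5 differed between AGS and A2058 (-0.64 ± 0.21, adjusted p = 0.0331) but not detectably between MCF10A and AGS (0.33 ± 0.20, adjusted p = 0.412). With 8q loss no member differed between HCT116 and A2058, against 0.514% of genes (edgeR; 2 at an unadjusted p under 0.05; DESeq2 was not run on differences).

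Single clones showed groups of members low together; those named first were picked after their values had been seen. In A2058 8q-loss clone 1, GAS5, SNHG5, SNHG8, SNHG12 and ZFAS1 stood at -0.45, -0.36, -0.43, -0.54 and -0.69 from the WT mean, and in clone 2 at 0.10, 0.21, 0.01, -0.09 and -0.16. In 7p-loss clone 1 the same 5 stood at -0.45, -0.45, -0.46, -0.87 and -0.58, and in clones 2 and 3 between -0.22 and 0.10. SNHG1 was also below all WT libraries in both clones (-0.43 in 8q-loss clone 1 and -0.39 in 7p-loss clone 1), and SNHG6 was in 7p-loss clone 1 (-0.27). SNHG6 changed by -0.25 over all 7p-loss libraries, so its lower level was not particular to clone 1. DANCR did not go with the low members, at -0.20 in 8q-loss clone 1 and 0.41 in 7p-loss clone 1, above all WT libraries there, nor did SNHG16, at -0.05 and -0.07. None of the genes named here lies on the arm lost in the clone it is named for. Mitochondrial counts were 2.49% and 4.12% in 8q-loss clone 1, 1.93% and 2.83% in 7p-loss clone 1 and 2.52% to 4.12% in WT. Over the 25 loss clones GAS5 ranged from -1.55 to 0.80, ZFAS1 from -1.50 to 0.93 and SNHG16 from -0.30 to 0.35.

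**Figure D5:**
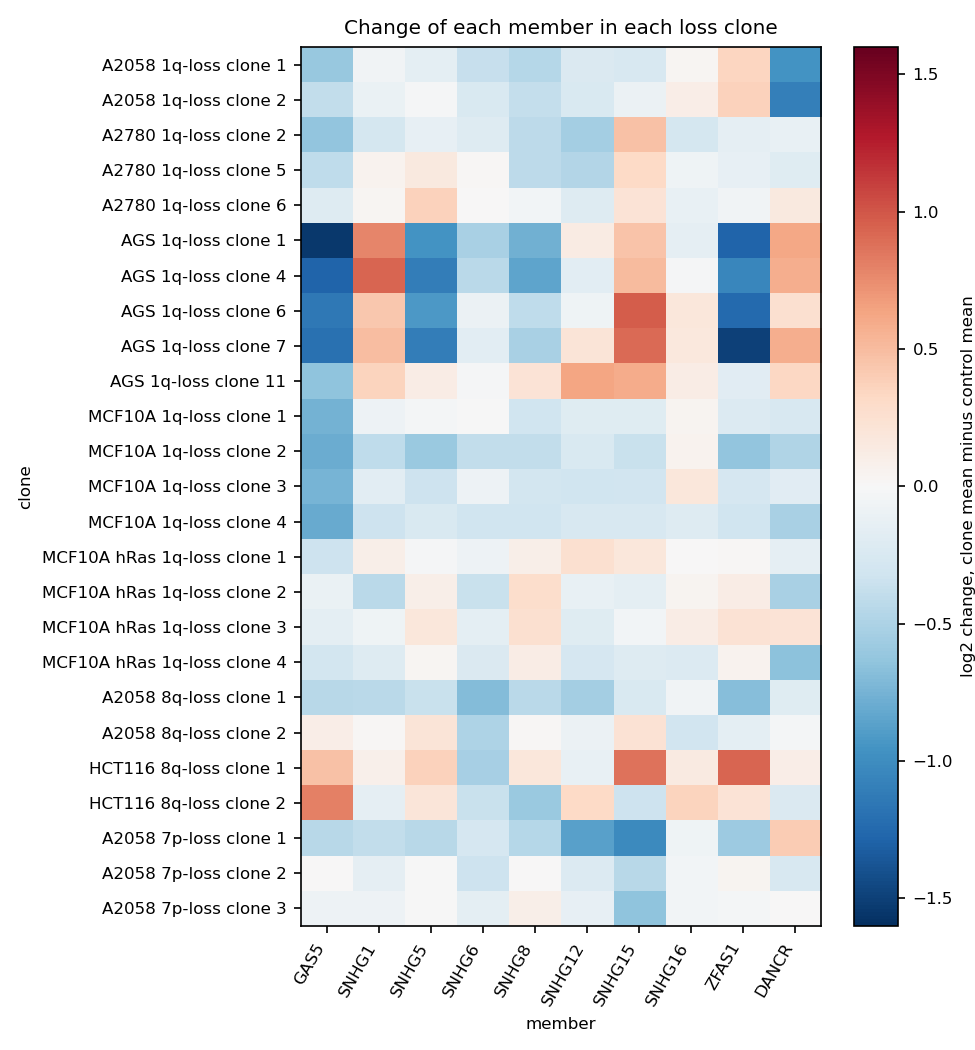
Change of each of the 10 members (columns) in each of the 25 loss clones (rows), as the log2 mean of the clone's libraries minus the mean of its controls; blue is lower and red higher. GAS5 is blue in all 18 1q-loss clones, SNHG6 in the 4 8q-loss clones and SNHG15 in the 3 7p-loss clones, and AGS clones 1, 4, 6 and 7 are also blue for SNHG5, SNHG8 and ZFAS1.

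Across the 62 libraries, each centred on the mean of its line (MCF10A with and without hRas separately), the SD of log2 CPM was 0.36 for ZFAS1, 0.35 for DANCR and 0.33 for GAS5, and least for SNHG16 at 0.16. Pearson's r between members is given as a description, since libraries share clones, lines and controls. It ran from -0.33 to 0.72 over the 45 pairs, with a median of 0.17. The 6 pairs among GAS5, SNHG5, SNHG8 and ZFAS1, 4 members picked after their values had been seen, had r of 0.55 to 0.72, and without AGS r of 0.27 to 0.59. SNHG5 and ZFAS1 had r of 0.95 in the 8 AGS libraries, 0.84 in MCF10A and 0.43 in A2058. Pairs varied more between lines elsewhere: GAS5 and SNHG8 had r of 0.92 in A2058 and -0.59 in HCT116. GAS5 and ZFAS1 had r of 0.92 in AGS and 0.05 in A2058.

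The genes most like GAS5 over the 62 libraries, among 7666 genes ranked, were all on 1q: C1orf43 (r = 0.81), PFDN2, a prefoldin subunit gene (r = 0.79), and USP21, a deubiquitinase gene (r = 0.79). Their likeness was low in HCT116, the 1 line with no 1q-loss clone, at 0.05, 0.33 and 0.05 over 6 libraries. The genes most like ZFAS1 were RPS15A, a ribosomal protein gene (r = 0.75), EIF1, a translation initiation factor gene (r = 0.75), and CTDNEP1, a phosphatase gene (r = 0.69). Those most like SNHG1 were the splicing factor gene SRSF7 (r = 0.74), the replication factor gene RFC3 (r = 0.73) and the ribosome biogenesis gene BYSL (r = 0.71). The median absolute r over all genes ranked was 0.16 for GAS5, 0.20 for SNHG1 and 0.16 for ZFAS1.

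Other genes of the pathway were read from lists of 20 further noncoding hosts, 44 protein-coding hosts, 10 NMD factors and 17 snoRNP proteins and assembly factors. Of the NMD factors, SMG5, which helps bring phosphorylated UPF1 to decay enzymes, lies on 1q. SMG5 fell by 0.44 in A2058, 0.32 in A2780, 0.50 in AGS and 0.43 in MCF10A. In A2058 without 1q, 3 of the 10 NMD factors rose and 3 fell, a share to be read against the 49.6% of all genes called there, with SMG1 (0.45) and UPF3A (-0.46) at the ends.

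Further noncoding hosts were called in A2058 without 1q, where 1 of 16 rose (SNHG14, 0.49) and 6 fell (SNHG18 the most, by 1.44), with a median of -0.17 against -0.00057 over all genes and 49.6% of all genes called, and in A2780, where 11.8% of genes were called and 1 of 7 rose (SNHG14, 0.26) and 0 fell. Protein-coding hosts, most of them ribosomal protein and translation factor genes, gave 2 higher and 6 lower of 43 in A2058 without 1q (TPT1 by 0.23, RPL37 by -0.51), a smaller share than the 49.6% of all genes. In A2780 they gave 1 higher and 1 lower of 43 (EIF4A2 by 0.34, SF3B3 by -0.22), against 11.8% of genes. In A2058 without 8q, 2 of 43 fell, RPS20 by 0.74 and RPL30 by 0.55, and both lie on 8q, against 2.03% of all genes called.

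The snoRNP list held 3 members that rose of 16 in AGS, NOP58, a core protein of box C/D snoRNPs, by 0.36 and the assembly helicases RUVBL1 and RUVBL2 by 0.46 and 0.77. Its median was 0.25 against 0.01 over all genes, of which 3.38% were called higher. In A2058 without 1q, ZNHIT6 and RUVBL1 rose by 0.43 and 0.19, where 25.3% of genes were called higher. In the comparisons not named here, none of the lists of hosts and snoRNP factors had a member called by edgeR, with 0 to 9 members at an unadjusted p under 0.05.

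Among parental cells the order of the hosts differed by line when levels were divided by exon length (CPM per kilobase). SNHG6 was highest in A2058 (97.2 ± 8.77, SD, n = 4) and in HCT116 (75.2, libraries at 63.5 and 87.0). GAS5 was highest in AGS, at 157 in the WT library and 136 and 145 in TK+ cells, followed by SNHG8 at 94.6. DANCR was highest in A2780 (74.4) and in MCF10A (44.3), and 1 of the lowest in AGS at 7.43. In A2058 GAS5 (47.3 ± 3.54) and SNHG8 (47.1 ± 4.97) did not differ beyond their spread, nor did SNHG5 and SNHG16 (29.5 ± 4.42 and 25.2 ± 2.15) or ZFAS1 and SNHG15 (14.8 ± 1.56 and 14.7 ± 1.502), and SNHG12 was lowest (6.64 ± 0.64). In MCF10A the libraries of DANCR, SNHG8 and GAS5 overlapped, with SNHG8 at 41.9 and GAS5 at 41.4. A2780 lengths come from shorter GRCh37 gene models, so its levels are not set against those of other lines.

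Counts of the snoRNAs themselves were low. Of 23 snoRNA genes annotated inside 9 members in the GRCh38 tables, the summed counts per member had a median of 0 to 9.5 per library and a maximum of 42. Besides GAS5 (ZBTB37, given above, and GAS5-AS1, a median of 9 counts against 2954), members that overlap other genes were SNHG6 (MCMDC2, a median of 12 counts against 1063), SNHG12 (TRNAU1AP, 339.5 against 574.5), SNHG16 (AC015802.6, 4 against 2716.5), DANCR (AC104066.1, 9 against 1635.5) and ZFAS1 (ZNFX1, 1583.5 against 801). For SNHG12 and ZFAS1 the partner's counts, taken over its whole length, were of the same size as the member's. The shared stretches are short. TRNAU1AP ends at chr1:28578545 and the span of SNHG12 begins at 28578538. ZNFX1 ends at chr20:49278426, and ZFAS1 spans 49278178 to 49295738.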

How the data were processed

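The authors deposited 1 table of raw counts per gene for each of 62 libraries. Per the submitters' processing notes, HISAT2 2.0.5, featureCounts 1.5.0-p3 and hg38 were used. The 10 A2780 tables nevertheless carry GRCh37 coordinates and were fitted alone. Strand use is not given in the sources used here. The members and lists, and the tests, were chosen with earlier results of these data known.

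Groups follow the labels. In edgeR 4.0.16, filterByExpr (minimum count 10, minimum total count 15) and TMM scaling preceded the quasi-likelihood F-test, with p-values Benjamini-Hochberg adjusted over all genes of each of 12 comparisons. Only libraries of a comparison entered its fit; SE is the fold change over the square root of F. The script was tested on simulated data. Members were compared with their arm by an exact permutation test over libraries (log2 CPM, prior count 2). Versions were limma 3.58.1 and DESeq2 1.42.0 in R 4.3.3, and matplotlib 3.10.9, scipy 1.17.1, pandas 2.3.3 and numpy 2.4.6 in Python 3.11.15.

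All 10 members were named throughout. Of the listed genes, the called one with the largest rise and fall could be named; SMG5 in A2058, A2780 and AGS, RPL30, NOP58 and RUVBL1 fall outside that rule and were named after their values were seen. Genes that overlap a member or lie nearest to GAS5, SNHG6 and SNHG15 were named too, apart from some results that are not reported here. Likeness used the 3 highest r among genes with a mean CPM of at least 5 in every line. Alternatives were DESeq2, RLE factors, TMM outside the arm, no filter, summed clones, a filter at a mean CPM of 1, left-out libraries and clones, other controls, a replicate block and a fit per line. Clone numbers pair the MCF10A 1q-loss clones with and without hRas: deviations of the clone means from their group means over 16492 genes correlated at 0.269 to 0.602 for same-numbered clones and -0.338 to 0.0433 for the others. The labels give the shared numbers and do not say that they mark 1 clone. Libraries held 15042068 counts or more.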

Additional observations from a re-analysis of the deposited data

Results flagged for a closer look

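SNHG5 in AGS 1q-loss clone 11 stood at 70.6 CPM, far from the other 4 clones at 29.9 to 34.1 CPM, and ZFAS1 in the same clone stood at 140 CPM against 55.7 to 76.5 CPM. These were the 2 distant libraries among 90 groups tested, where chance alone marks about 1 in 20.

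The change with 1q loss differed by an interaction test between AGS and A2058 (AGS minus A2058, edgeR with Benjamini-Hochberg adjustment over all genes) for GAS5 (-0.64, adjusted p = 0.0331), SNHG1 (0.67, adjusted p = 0.0152), SNHG15 (0.87, adjusted p = 0.00235), ZFAS1 (-1.36, adjusted p = 0.00489) and DANCR (1.52, adjusted p = 3.47e-05). Between MCF10A and A2058 it differed for ZFAS1 (-0.69, adjusted p = 0.00706) and DANCR (0.70, adjusted p = 0.0166). Between MCF10A and AGS it differed for SNHG1 (-0.87, adjusted p = 0.0372), SNHG15 (-1.01, adjusted p = 0.0109) and DANCR (-0.86, adjusted p = 0.0175). SNHG1 lies on 11q, and the genes of 11q together stood above control in AGS clones 1 and 4, which had the highest SNHG1. For these 5 members the clone means lay on 1 side of the control mean within each line. In AGS, SNHG1, SNHG15 and DANCR were higher in 5 of 5 clones and GAS5 and ZFAS1 lower in 5 of 5. Clones 6 and 7, and clones 1 and 4, were closely alike there, so the 5 may not be independent. In A2058, ZFAS1 was higher in 2 of 2 clones and the other 4 members lower in 2 of 2. In MCF10A all 5 were lower in 4 of 4 clones.

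For 3 further pairs all libraries of one comparison moved one way and all of the other the opposite way, and the difference was not tested; the values are means over libraries of the log2 change from controls. SNHG15 changed by 0.34 in A2780 and -0.18 in A2058 without 1q, a difference of 0.52. SNHG15 changed by -0.28 in MCF10A, a difference from A2780 of -0.62. SNHG8 changed by 0.19 in MCF10A with hRas and -0.42 in A2058 without 1q, a difference of 0.61.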

How the results depend on the processing

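No result reversed its direction under an alternative after passing the test. GAS5 kept its call under all 20 alternatives in A2058 (leaving out 1 library: -0.55 to -0.46) and all 22 in MCF10A (-0.83 to -0.72), and stayed without one under all 23 in MCF10A with hRas (-0.34 to -0.10), as SNHG6 did under all 15 in HCT116 (-0.65 to -0.20). Where a call was lost the cause was not tested, except that fits with fewer libraries or summed clones have fewer samples.

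In A2780, GAS5 changed by -0.41 with clones summed (adjusted p = 0.08), -0.31 without clone 2, -0.41 without clone 5, -0.46 with TK+ controls and -0.36 with WT controls, and by -0.46 to -0.35 over the fits leaving out 1 library. In AGS it changed by -1.06 with TK+ controls, -1.24 with the WT control, which is a single library, and -1.29 to -1.04 leaving out 1 library. SNHG6 in A2058 changed by -0.49 without clone 1, -0.50 against WT replicates 1 and 2 (adjusted p = 0.217), -0.67 against WT replicates 3 and 4 (adjusted p = 0.241) and -0.68 to -0.50 leaving out 1 library. SNHG15 in A2058 without 7p changed by -0.69 with clones summed (adjusted p = 0.148), -0.71 without clone 3, -0.61 against WT replicates 1 and 2 (adjusted p = 0.524), -0.77 against WT replicates 3 and 4 (adjusted p = 0.177) and -0.76 to -0.63 leaving out 1 library.

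The count of members called moved as follows. In A2058 without 1q it was 5, 3 against WT replicates 1 and 2, and 5 to 6 leaving out 1 library. In A2780 it was 1, 3 with DESeq2, 0 with clones summed, 0 without clone 2 or clone 5, 2 without clone 6, 0 with TK+ controls and 0 to 2 leaving out 1 library. In AGS it was 2, 5 with DESeq2, 4 with no filter, 0 with TK+ controls alone and 0 to 5 leaving out 1 library. The WT control alone is a single library, so its count is not given. In A2058 without 8q it was 1, 0 without clone 1, 2 without clone 2, 0 against either pair of WT replicates and 0 to 1 leaving out 1 library. In A2058 without 7p it was 1, 0 with clones summed, without clone 3 or against either pair of WT replicates, and 0 to 1 leaving out 1 library. With hRas in WT cells it was 1, 2 with DESeq2, 3 with no filter, 0 in the fit over all MCF10A groups and 0 to 1 leaving out 1 library. For the TK cassette in A2780 it was 0, and 2 without TK+ replicate 2, where 2965 genes were called against 1669.

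Replicate numbers were not taken to pair the libraries. Deviations of same-numbered loss and control libraries correlated at -0.14 to 0.28 over the comparisons, and no comparison with 3 or more pairs had all of them over 0.1. Between the 8q-loss and 7p-loss clones of A2058 they correlated at 0.20 to 0.42, and between these clones and WT at -0.06 to 0.02. In A2058 a replicate block kept only WT replicates 1 and 2 as controls. It left 0 members called without 8q (SNHG6 -0.51, adjusted p = 0.146) and 0 without 7p (SNHG15 -0.61, adjusted p = 0.676). With hRas in WT cells a replicate block gave 4 members called. With the clone number as a block 1 member was called with hRas in 1q-loss clones, DANCR at -0.28 (adjusted p = 0.0239), and 2160 genes against 172; with that block 1 was called without clone 1 (3127 genes) or clone 3 (1503 genes), and 0 without clone 2 (554 genes), clone 4 (901 genes) or both (371 genes). AGS carries no shared replicate numbers, so no paired fit was made there.

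Relative to its arm, GAS5 was at -0.75 to -0.53 in AGS and -0.34 to -0.20 in MCF10A leaving out 1 library, and at -0.28, -0.28, -0.27 and -0.25 in MCF10A without clones 1 to 4 (exact permutation p = 0.0714 each). All of these designs with fewer libraries have a smallest possible p above 0.05, so the test could not pass in any of them. Leaving out 1 library gave -0.09 to -0.01 in A2058, -0.03 to 0.07 in A2780 and 0.05 to 0.30 in MCF10A with hRas for GAS5, -0.15 to 0.04 in A2058 and 0.03 to 0.28 in HCT116 for SNHG6, and -0.27 to -0.13 for SNHG15.

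The background moved too. Genes called in AGS numbered 1131, 2232 with DESeq2 and 167 with TK+ controls, and the WT control alone is a single library. In A2780 they numbered 1780 and 667 with TK+ controls. In MCF10A they numbered 319 and 568 with DESeq2, and with hRas 34 and 460. Leaving out 1 library gave both lower and higher numbers in MCF10A, and with hRas a lower number in every such fit. In A2058 without 8q they numbered 308, 684 with DESeq2, 119 to 287 leaving out 1 library and 16 to 783 over all alternatives. In A2058 without 7p they numbered 139, 525 with DESeq2, 71 to 184 leaving out 1 library and 1 to 898 over all alternatives. In HCT116 they numbered 22 and 117 with DESeq2, with both lower and higher numbers leaving out 1 library. With hRas in 1q-loss clones they numbered 172, 799 with DESeq2 and 28 to 497 leaving out 1 library. With hRas in WT cells they numbered 237, and 711 with a replicate block. They were fewer in every fit leaving out 1 library, each of which leaves 1 library in a group.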
